A study of Populus trichocarpa with 9 samples.

Results

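Stem differentiating xylem after 3 days of bending was compared with the same tissue of unbent trees in 6 of the 9 RNA libraries of a study on Populus trichocarpa (black cottonwood). The 6 were taken by their titles, 3 labelled day 3 and 3 labelled day 0, and the other 3 libraries, from stems bent for 7 days, entered the fit that estimates the spread. All trees were wild type, grown in a greenhouse and 6 months old. The study describes its plants as clonally propagated from a single genotype, Nisqually-1. Stems of the 3-day group had been bent to 90 degrees and xylem was scraped from their upper side, while control xylem came from the matching position on upright stems. No unbent tree is labelled day 3, so the effect of bending and that of the days that passed, or of the harvest day, cannot be told apart. The titles number the replicates without saying whether each was a separate tree. The study calls them biological replicates, and the p-values below speak to the spread among these libraries only.

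Bending makes the upper side of a hardwood stem form tension wood, a wood rich in crystalline cellulose and poor in lignin. Lignin is polymerised in the secondary wall from monolignols, which are made from phenylalanine by a chain of deamination, hydroxylation, CoA ligation, methylation and reduction steps. Cellulose of the same wall is spun by complexes of secondary wall cellulose synthases (CesA), and both programmes are switched on by a network of transcription factors in which MYB proteins act above the wall enzymes. Members of the class B heat shock factors, to which PtrHSFB3-1 belongs, are known in plants as regulators of stress and developmental genes.

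Total counts were 22740771, 28866573 and 22292997 in control replicates 1 to 3, and 20888144, 23129069 and 21691122 in 3-day replicates 1 to 3. Between 32349 and 32807 of 41335 gene models had a count in each of these libraries, and 27795 passed the filter on low counts and were tested. Levels below are CPM (counts scaled to library size with TMM factors), 1 count being worth 0.0321 to 0.0458 CPM, and means are given with the SD over 3 libraries. The tissue label was checked by genes of the secondary wall alone, since the gene IDs could not be matched to annotated markers of other cell types. The 5 CesA genes held 0.365% to 0.829% of all reads of a library, and the 22 monolignol genes 0.844% to 2.10%. In raw reads, before any scaling, the 22 monolignol genes took 1.53%, 1.70% and 2.10% of the control libraries and 0.961%, 1.26% and 0.844% of the 3-day libraries. The 3-day libraries thus all lay below the controls in the share of reads from lignin genes. In bulk tissue, fewer cells of a type and less RNA of a gene per cell cannot be told apart, and this holds for every difference below.

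Across all genes, the difference between the groups was of the same size as the differences within them. The median absolute log2 difference of a gene was 0.31 to 0.33 between pairs of controls, 0.27 to 0.37 between pairs of 3-day libraries, and 0.27 to 0.42 between a control and a 3-day library. On the first principal component of all 9 libraries, which held 33.6% of the variance, controls lay at -99.6, -25.8 and -43.2 and 3-day libraries at -26.2, 19.4 and -13.5. Control replicate 2 and 3-day replicate 1 were thus next to each other, and control replicate 1 stood apart.

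The edgeR quasi-likelihood test called 0 of the 27795 genes (0%) at a Benjamini-Hochberg adjusted p under 0.05, the smallest adjusted p being 0.141. With no adjustment, 3265 genes (11.7%) had a p under 0.05, where 1390 would if no gene differed, and 1726 of them (6.21%) were higher and 1539 (5.54%) lower after 3 days. DESeq2, also fitted to all 9 libraries, called 913 genes (3.28%), 552 higher (1.99%) and 361 lower (1.3%). The exact test of edgeR, fitted to the 6 compared libraries alone, called 469 (1.69%), 281 higher (1.01%) and 188 lower (0.676%). Both of these called 430 genes in common, and in 429 of those the 3 bent and 3 control libraries did not overlap. The count of quasi-likelihood calls depended on single libraries: leaving out control replicate 2 gave 37 calls, leaving out 3-day replicate 3 gave 5, and leaving out 3-day replicate 2 gave 1.

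**Figure D1:**
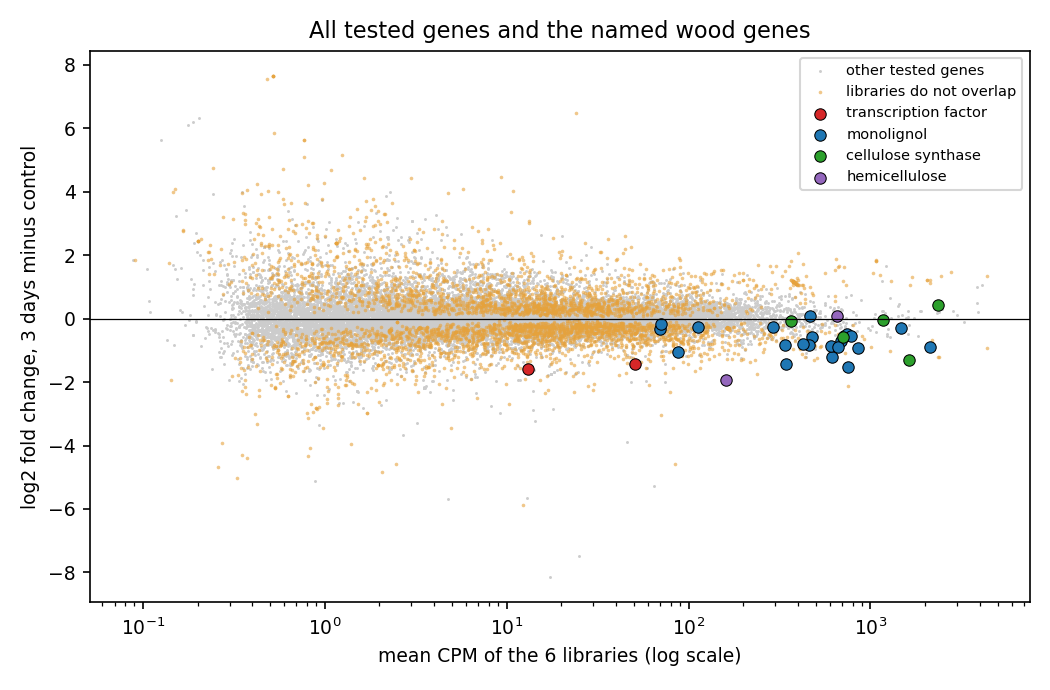
Log2 fold change of each tested gene, 3 days minus control, against its mean level in CPM on a log axis. Small points are the 27795 tested genes, orange where the libraries of the groups do not overlap (4200 genes), and large points are the 31 named wood genes by class. Of the 31 named genes, 28 lie below 0, while the median of all tested genes is -0.0049.

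A description by ranges needs no model of the spread. In 1964 genes (7.07%) every 3-day library was above every control, and in 2236 genes (8.04%) every 3-day library was below. With 3 libraries in each group, some genes separate in each direction even where the groups do not differ. That part was not estimated, so these counts are not numbers of responding genes. The larger the fold, the more the balance turned to higher genes. Non-overlapping genes with a fold above 1.5 numbered 1094 higher and 1042 lower. Non-overlapping genes with a fold above 2 numbered 664 higher and 436 lower, and those with a fold above 4 numbered 190 higher and 78 lower. Genes at high levels separated more often than others. Of the 74 genes with a mean over 1000 CPM, 19 (25.7%) were higher and 10 (13.5%) lower without overlap, compared with 6.83% higher and 8.3% lower of the 12712 genes at 10 to 100 CPM. The median absolute log2 fold change was 0.54 in the former and 0.17 in the latter.

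The gene models given next had the smallest p in each direction among genes with non-overlapping libraries and at least 5 CPM in the higher group. They carry no names in the sources used here. Potri.009G114800 was at 2.58, 4.05 and 2.14 CPM in controls and at 21.5, 28.5 and 20.8 CPM after 3 days. Its log2 fold change was 3.00 (SE 0.33), an 8.02-fold difference, with an adjusted p of 0.141 by the quasi-likelihood test and of 1.61e-14 by edgeR's exact test. Since these genes were picked for a small p and for no overlap, their separation follows from that choice. Potri.001G018300 was at 14.2, 17.0 and 13.6 CPM in controls and at 42.1, 32.4 and 31.9 CPM after 3 days, a log2 fold change of 1.25 (SE 0.16). In the other direction, Potri.015G014000 was at 27.4, 38.2 and 22.4 CPM in controls and at 8.81, 11.9 and 8.69 CPM after 3 days, a log2 fold change of -1.58 (SE 0.22). Potri.005G205700 had the tightest groups of these genes. It was at 152.7, 150.4 and 169.4 CPM in controls and at 77.3, 71.1 and 71.2 CPM after 3 days, a log2 fold change of -1.11 (SE 0.16). All of them had the same quasi-likelihood adjusted p of 0.141.

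The named wood genes, for which the study's tables pair a name with an ID, number 31: 2 transcription factors, 22 monolignol genes, 5 CesA genes and 2 hemicellulose genes. The quasi-likelihood test called 0 of them, as it called 0% of all genes. Their point estimates nonetheless leaned one way: 28 of 31 had a negative log2 fold change, where 50.6% of all tested genes did. In 14 of 31 (45.2%) every 3-day library was below every control, where 8.04% of all tested genes were. In 0 of 31 was every 3-day library above, where 7.07% of all tested genes were. Most named genes lay above 100 CPM, where separation was more frequent. Of all tested genes at 100 to 1000 CPM, 11.8% were lower and 11% higher without overlap. Over 1000 CPM these shares were 13.5% and 25.7%. At an unadjusted p under 0.05, 13 named genes were lower and 0 higher, against 5.54% lower and 6.21% higher of all tested genes. DESeq2 called 7 lower (1.3% of all tested genes) and the exact test called 5 lower (0.676%), and they called 0 higher (1.99% and 1.01% of all tested genes). The study picked the 2 transcription factors because they were repressed in these same bending libraries. Their lower levels follow from that choice, and both are included in the counts above. The monolignol and CesA genes were chosen for work on lignin and wood. The study names the 2 hemicellulose genes among those that PtrMYB092 activated in protoplasts. Of the 31 named genes, 23 are on its list of genes raised by PtrMYB092. The counts thus describe the named genes and are not set against other genes by a test.

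**Figure D2:**
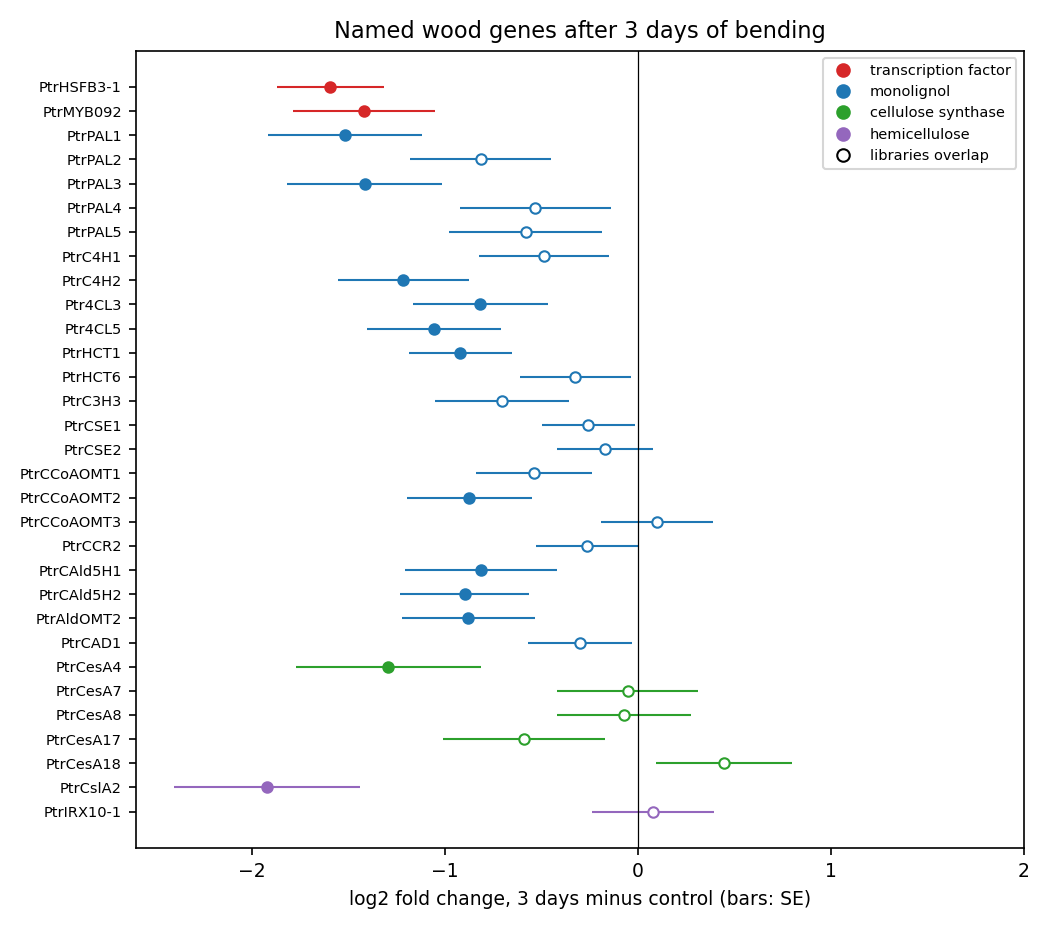
Log2 fold change, 3 days minus control, of the 31 named wood genes, with bars of 1 SE from the edgeR quasi-likelihood fit. Filled points mark genes whose 3-day and control libraries do not overlap, 14 in all, each below 0. The lowest point is PtrCslA2 at -1.92 and the highest is PtrCesA18 at 0.44.

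Both transcription factors were lower after 3 days in all libraries. The study had selected them from these bending data because they were repressed. Their ranks and p-values here are therefore not independent of that choice. PtrHSFB3-1 (Potri.006G049200), the class B heat shock factor of the study, was at 23.9, 17.9 and 17.0 CPM in controls and at 7.66, 8.01 and 3.83 CPM after 3 days. The lowest control was above double the highest bent library. The means were 19.6 ± 3.75 and 6.50 ± 2.32 CPM, and the log2 fold change was -1.59 (SE 0.28), a 3.02-fold difference. It had the smallest p of the named genes and ranked 49 of all tested genes, with an adjusted p of 0.141 by the quasi-likelihood test, 0.00234 by the exact test and 6.88e-05 by DESeq2.

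PtrMYB092 (Potri.001G118800), a MYB factor, was at 88.7, 34.8 and 97.4 CPM in controls and at 27.3, 28.8 and 26.4 CPM after 3 days. The bent libraries were nearly alike, whereas control replicate 2 was far below the other controls and close to the bent libraries. The means were 73.6 ± 33.9 and 27.5 ± 1.20 CPM, and the log2 fold change was -1.42 (SE 0.37, adjusted p 0.189 by the quasi-likelihood test, 0.0126 by DESeq2). At 7 days the factors were at 6.79 ± 0.844 and 22.3 ± 6.96 CPM, and the difference between 7 and 3 days had an adjusted p of 0.912 for PtrHSFB3-1 and 0.657 for PtrMYB092.

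**Figure D3:**
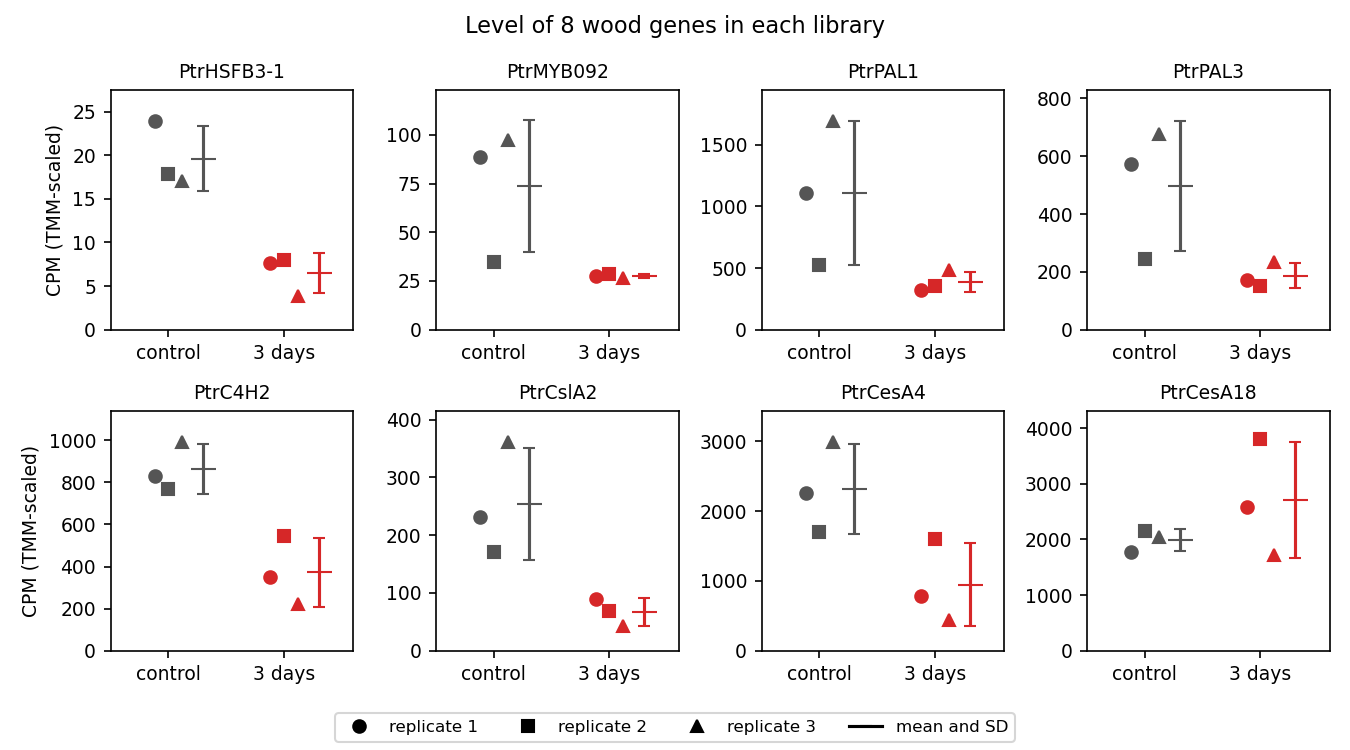
Level in CPM, on a linear axis from 0, of 8 wood genes in each control (grey) and 3-day (red) library, with the symbol giving the replicate and the bar the mean and SD of 3 libraries. In all but PtrCesA18 the red points lie below every grey point, and control replicate 2 is the lowest control for PtrMYB092, PtrPAL1, PtrPAL3, PtrC4H2, PtrCslA2 and PtrCesA4.

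The first step of the pathway, phenylalanine ammonia-lyase (PAL), which removes ammonia from phenylalanine, differed by gene copy in how far the libraries separated. PtrPAL1 was at 1109, 527.7 and 1695 CPM in controls and at 324.6, 354.6 and 483.4 CPM after 3 days, a log2 fold change of -1.52 (SE 0.40, quasi-likelihood adjusted p 0.201). PtrPAL3 was at 571.9, 246.2 and 677.5 CPM in controls and at 173.4, 151.7 and 234.9 CPM after 3 days, a log2 fold change of -1.42 (SE 0.40, quasi-likelihood adjusted p 0.224). In both genes the bent libraries were below every control, and control replicate 2 was lower than the other controls by more than the distance that separated it from the bent libraries. DESeq2 called both, with adjusted p of 0.00688 and 0.0190. PtrPAL2 was at 353.5, 385.8 and 551.8 CPM in controls and at 209.4, 380.7 and 143.8 CPM after 3 days, so the groups overlapped through 3-day replicate 2. PtrPAL4 and PtrPAL5 are close copies between which reads may be split, so their separate counts are uncertain. Their log2 fold changes were -0.53 and -0.58, with overlapping libraries. Summed over all 5 genes, PAL was at 3148, 2785 and 4451 CPM in controls and at 1654, 2315 and 1397 CPM after 3 days, or 51.7% of the control mean.

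The same contrast shows in sums that avoid the split between close copies. PtrPAL1 and PtrPAL3 together were at 1609 ± 802 CPM in controls and 574 ± 125 CPM after 3 days, 35.7% of the control mean with no overlap. PtrPAL2, PtrPAL4 and PtrPAL5 together were at 1852 ± 336 and 1215 ± 567 CPM, 65.6% of the control mean with overlap. As a share of all PAL reads, PtrPAL1 and PtrPAL3 took 53.4%, 27.8% and 53.3% in controls and 30.1%, 21.9% and 51.4% after 3 days. These shares overlapped, since control replicate 2 was low and 3-day replicate 3 high, so a shift in the use of PAL copies was not resolved.

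Next, cinnamate 4-hydroxylase (C4H) and p-coumarate 3-hydroxylase (C3H) add hydroxyl groups to the aromatic ring. PtrC4H2 was at 828.3, 767.0 and 994.4 CPM in controls and at 347.9, 547.1 and 220.1 CPM after 3 days, without overlap. Its log2 fold change was -1.22 (SE 0.34, adjusted p 0.220 by the quasi-likelihood test, 0.0136 by DESeq2). PtrC4H1 was at 729.8, 1007 and 881.6 CPM in controls and at 546.0, 889.0 and 432.3 CPM after 3 days, with overlap and a log2 fold change of -0.49 (SE 0.34). The balance between the C4H copies differed more clearly than the level of PtrC4H1. PtrC4H1 took 46.8%, 56.8% and 47.0% of C4H reads in controls and 61.1%, 61.9% and 66.3% after 3 days, so every bent library lay above every control. PtrC3H3 had a log2 fold change of -0.71 (SE 0.35), and 3-day replicate 2, at 740.7 CPM, exceeded control replicate 2, at 710.9 CPM.

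The CoA ligases (4CL) activate hydroxycinnamic acids, and hydroxycinnamoyl transferase (HCT) with caffeoyl shikimate esterase (CSE) carries them through the shikimate ester route. Ptr4CL5 was at 127.0, 75.8 and 150.1 CPM in controls and at 47.3, 49.3 and 72.9 CPM after 3 days, with control replicate 2 just above 3-day replicate 3. Ptr4CL3 also separated, with a log2 fold change of -0.82 (SE 0.35), and Ptr4CL5 had a log2 fold change of -1.06 (SE 0.35). PtrHCT1 was at 1306, 796.0 and 1269 CPM in controls and at 514.6, 748.9 and 515.8 CPM after 3 days. The nearest libraries of PtrHCT1 were those numbered 2, and its log2 fold change was -0.92 (SE 0.27, quasi-likelihood adjusted p 0.231, DESeq2 adjusted p 0.0126). Its copy PtrHCT6 had a log2 fold change of -0.32 (SE 0.29) with overlap. The esterase genes PtrCSE1 and PtrCSE2 had log2 fold changes of -0.26 (SE 0.24) and -0.17 (SE 0.25), also with overlap, and the latter was 0.09 without control replicate 2.

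Caffeoyl-CoA O-methyltransferase (CCoAOMT), which methylates the ring of CoA esters, had copies on both sides of 0. PtrCCoAOMT2 was at 596.8, 856.2 and 900.6 CPM in controls and at 424.5, 494.8 and 364.3 CPM after 3 days, below every control, with a log2 fold change of -0.87 (SE 0.32). PtrCCoAOMT3 was at 419.0, 535.3 and 395.5 CPM in controls and at 429.1, 669.7 and 347.2 CPM after 3 days, the single monolignol gene with a positive log2 fold change (0.10, SE 0.29), which was -0.21 without 3-day replicate 2. The groups of PtrCCoAOMT3 overlap and differ by less than their spread. Within the family, PtrCCoAOMT2 took 34.6%, 35.0% and 39.1% of reads in controls and 29.3%, 25.6% and 29.0% after 3 days. PtrCCoAOMT3 took 24.3%, 21.9% and 17.2% in controls and 29.6%, 34.7% and 27.6% after 3 days. Both shares separated without overlap, in opposite directions, while that of PtrCCoAOMT1 overlapped. Shares within a family are parts of a whole, so a lower share of some members goes with a higher share of others. The opposite directions are therefore not independent readings.

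Coniferaldehyde 5-hydroxylase (CAld5H) and the aldehyde O-methyltransferase (AldOMT) lead to syringyl lignin. PtrCAld5H1 had tight controls, at 515.4, 559.9 and 561.3 CPM, and scattered bent libraries, at 268.7, 507.4 and 155.7 CPM. PtrCAld5H2 was at 762.0, 840.1 and 995.4 CPM in controls and at 435.8, 689.9 and 266.9 CPM after 3 days. In both genes 3-day replicate 2 came close to the controls without reaching them, and the log2 fold changes were -0.81 (SE 0.39) and -0.90 (SE 0.33). PtrAldOMT2 was at 2181, 2870 and 3250 CPM in controls and at 1464, 1783 and 1261 CPM after 3 days, a log2 fold change of -0.88 (SE 0.35, quasi-likelihood adjusted p 0.372). The reductases of the last steps overlapped between the groups. Cinnamoyl-CoA reductase PtrCCR2 had a log2 fold change of -0.26 (SE 0.27), which was 0.0012 without control replicate 3, and cinnamyl alcohol dehydrogenase PtrCAD1 was at 1552, 1640 and 1711 CPM in controls and at 1215, 1727 and 1040 CPM after 3 days.

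Summed over the 22 genes, monolignol transcripts were at 14710, 15770 and 18850 CPM in controls and at 9205, 12990 and 7612 CPM after 3 days. The bent mean was 60.4% of the control mean, and no bent library reached a control. By enzyme family the 3-day level was 51.7% of control for PAL, 57.3% for C4H, 55.3% for 4CL, 54.5% for HCT, 54.9% for CAld5H and 54.3% for AldOMT, none of them with overlap. It was 61.3% for C3H, 71.6% for CCoAOMT, 81.2% for CAD, 83.4% for CCR and 85.7% for CSE, each with overlap. The median log2 fold change of the 22 genes was -0.76 (quartiles -0.89 and -0.37), beside -0.0049 for all tested genes. It was -0.44 without 3-day replicate 3 and -0.98 without 3-day replicate 2, and it lay below the median of all genes in each of the 17 alternatives. In 10 of 22 (45.5%) the libraries were lower without overlap, beside 8.04% of all tested genes and 11.8% of those at 100 to 1000 CPM.

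The CesA genes did not share a direction. PtrCesA4 (Potri.002G257900) was at 2261, 1695 and 2982 CPM in controls and at 783.8, 1602 and 444.0 CPM after 3 days. Its highest bent library, replicate 2, stood just under the lowest control, also replicate 2, and the log2 fold change was -1.29 (SE 0.48, quasi-likelihood adjusted p 0.340). It was -1.91 without 3-day replicate 2 and -0.93 without 3-day replicate 3. PtrCesA18 (Potri.004G059600) was at 1773, 2152 and 2042 CPM in controls and at 2591, 3804 and 1721 CPM after 3 days. Bent replicates 1 and 2 were above all controls and replicate 3 below them, and the log2 fold change was 0.44 (SE 0.35, quasi-likelihood adjusted p 0.672). It was 0.12 without 3-day replicate 2 and 0.71 without 3-day replicate 3. PtrCesA7 and PtrCesA8 were near equal in mean, with log2 fold changes of -0.05 (SE 0.37) and -0.07 (SE 0.35), and PtrCesA17 was at -0.59 (SE 0.42), which was -1.18 without 3-day replicate 2 and -0.22 without 3-day replicate 3. These 3 overlapped. The median of the 5 genes was -0.07, and it was 0.23 without 3-day replicate 3 and -0.45 without 3-day replicate 2, so no direction holds for the family as a whole.

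What did separate was the make-up of the CesA reads, a measure within each library on which scaling between libraries has no effect. PtrCesA4 took 34.3%, 27.1% and 40.8% of the CesA reads in controls and 14.7%, 18.8% and 13.5% after 3 days. PtrCesA18 took 26.9%, 34.4% and 27.9% in controls and 48.5%, 44.6% and 52.2% after 3 days. Neither set of shares overlapped, the mean of PtrCesA4 being 34.1% ± 6.82 and 15.7% ± 2.79, and that of PtrCesA18 29.8% ± 4.09 and 48.5% ± 3.80. PtrCesA8 and PtrCesA18 are close copies, so their reads may be misassigned to each other, but their sum separated as well, at 33.6%, 40.6% and 32.0% in controls and 55.8%, 50.2% and 58.5% after 3 days. The sum of the other close pair, PtrCesA7 and PtrCesA17, overlapped between the groups (means of 30.5% and 29.5%). Alone, PtrCesA17 took 14.06%, 11.95% and 11.98% in controls and 9.27%, 11.08% and 7.80% after 3 days. That share was lower without overlap, but reads of this pair may be misassigned as well. Reads were not divided by gene length, so a share may be compared between libraries and not between genes. As parts of a whole, the lower share of PtrCesA4 and the higher share of PtrCesA18 are not independent readings. The 3-day libraries, which varied widely in the total of the CesA genes (5339, 8524 and 3295 CPM), were thus close to each other in its make-up.

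**Figure D4:**
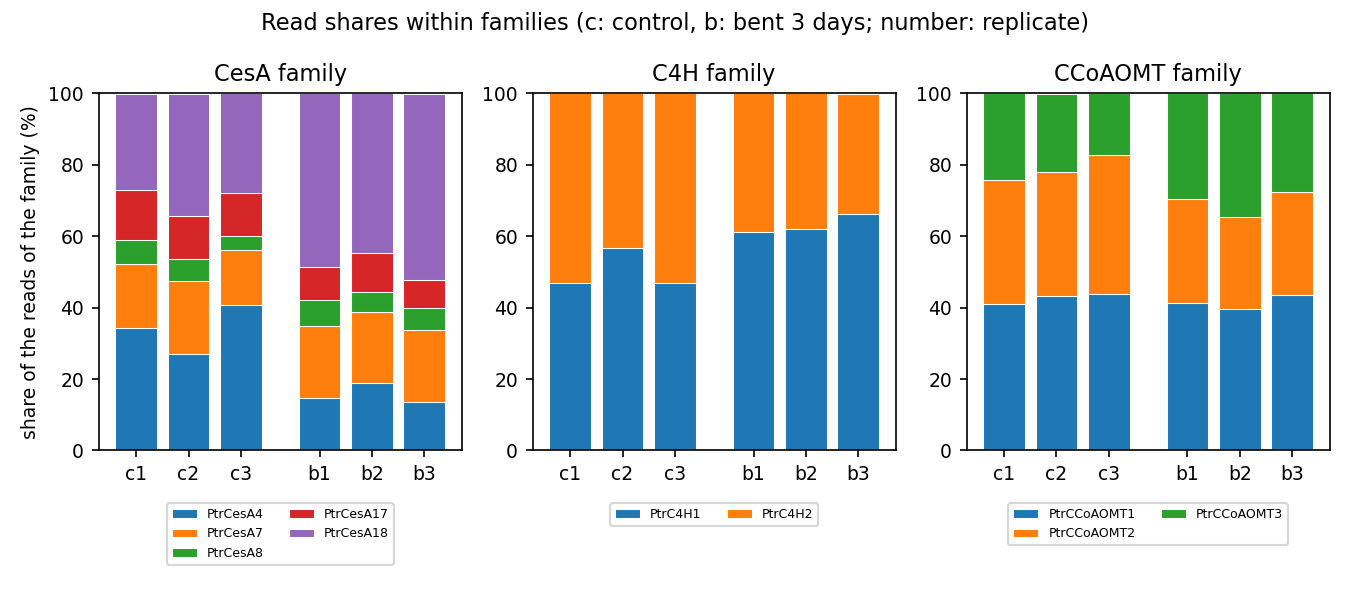
Share of the reads of the CesA, C4H and CCoAOMT families taken by each member, in percent, in each control (c) and 3-day (b) library with its replicate number. The PtrCesA4 band spans 27.1% to 40.8% in controls and 13.5% to 18.8% after 3 days, the PtrCesA18 band 26.9% to 34.4% and 44.6% to 52.2%, and the PtrC4H1 band 46.8% to 56.8% and 61.1% to 66.3%.

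The hemicellulose genes differed from each other. PtrCslA2 (Potri.010G234100), of the CslA family of glucomannan synthases, was at 230.7, 170.6 and 360.5 CPM in controls and at 89.8, 68.6 and 42.5 CPM after 3 days. Every control was well above every bent library, and the log2 fold change was -1.92 (SE 0.48), a 3.79-fold difference and the largest in size of the 31 named genes. Its adjusted p was 0.184 by the quasi-likelihood test, 0.000929 by the exact test and 0.00370 by DESeq2. PtrIRX10-1 (Potri.001G068100), of the family that builds the xylan backbone, was at 656.3, 759.1 and 489.7 CPM in controls and at 656.5, 877.4 and 476.4 CPM after 3 days. Its groups lay over each other, with a log2 fold change of 0.08 (SE 0.31). PtrActin, against which the study scaled its measurements of DNA enrichment and not of transcripts, was at 876.9, 794.3 and 904.4 CPM in controls and at 699.6, 751.5 and 778.9 CPM after 3 days, lower without overlap by a log2 fold change of -0.21 (SE 0.19, quasi-likelihood adjusted p 0.720).

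Most named genes shared an order of the bent libraries. Among the bent libraries, replicate 2 was the highest in 27 of the 31 genes and replicate 3 the lowest in 24. PtrPAL1, PtrPAL3 and Ptr4CL5 were the exceptions with their highest level in replicate 3, and PtrCslA2 had it in replicate 1. Among controls, replicate 3 was the highest in 17 genes, replicate 2 in 9 and replicate 1 in 5, while replicate 1 was the lowest in 16, replicate 2 in 10 and replicate 3 in 5. Those with replicate 2 lowest were PtrMYB092, PtrPAL1, PtrPAL3, PtrC4H2, Ptr4CL5, PtrHCT1, PtrC3H3, PtrCesA4, PtrCesA17 and PtrCslA2. Of these 10, all but PtrC3H3 and PtrCesA17 were lower after 3 days without overlap. The 31 genes are therefore not 31 independent readings of the difference between the groups.

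A wider set of genes linked to the transcription factors was taken from the study's tables of genes raised or lowered when either factor was overexpressed in xylem protoplasts, which are other samples. Only membership and direction were used, and the direction was read from the fold column of those tables. The numbers raised and lowered by that column differ from those in the study's text, while the totals do not. Of the genes raised by PtrMYB092, 817 of the 1001 in the count table were tested here, and their median log2 fold change after 3 days of bending was -0.15, with 62.5% negative. Lower without overlap were 150 (18.4%) and higher 43 (5.26%), beside 8.04% and 7.07% of all tested genes. Without the 23 named wood genes in the list, the median was -0.14, with 17.5% lower and 5.42% higher. Medians by library, relative to the control mean of each gene, were -0.06, 0.01 and 0.06 in controls and -0.15, -0.07 and -0.24 in 3-day replicates 1 to 3. The 3-day libraries are thus below every control, with replicate 2 (-0.0748) just under control replicate 1 (-0.0626). In 7-day replicates 1 to 3 the medians were 0.15, -0.13 and 0.09, with PtrMYB092 itself at 22.3 ± 6.96 CPM. A link between the list and the level of the factor was not tested. On the same measure the 22 monolignol genes overlapped, since 3-day replicate 2 (-0.17) was above control replicate 1 (-0.25).

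Of the genes raised by PtrHSFB3-1, 678 of 1140 were tested, with a median of -0.12, 89 (13.1%) lower and 42 (6.19%) higher without overlap. Its library medians overlapped, at 0.03, -0.06 and 0.05 in controls and -0.05, -0.15 and -0.19 after 3 days, and its median was -0.0205 without control replicate 1, -0.0459 without 3-day replicate 3 and -0.0133 with no filter on low counts. The list without its 10 named wood genes had a median of -0.10 and 12.9% lower, and its library medians overlapped as well. The genes raised by both factors, 139 tested, had a median of -0.24, with 26 (18.7%) lower and 8 (5.76%) higher. That median was -0.15 without control replicate 1 or 3 and -0.16 without control replicate 2. The opposite lists did not mirror these. Of 125 tested genes lowered by PtrHSFB3-1, 18 (14.4%) were lower and 5 (4%) higher without overlap, with a median of -0.03 that became 0.13 when control replicate 1 was left out and -0.12 when 3-day replicate 1 was. The 18 tested genes lowered by PtrMYB092 are too few to describe beyond a median of 0.15, which was -0.12 without 3-day replicate 1. The quasi-likelihood test called 0 genes in each of these lists. At an unadjusted p under 0.05, 121 genes raised by PtrMYB092 were lower (14.8%) and 49 higher (6%), beside 5.54% lower and 6.21% higher of all tested genes. For PtrHSFB3-1, 80 were lower (11.8%) and 47 higher (6.93%), so the share of higher genes was near that of all tested genes in both lists.

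**Figure D5:**
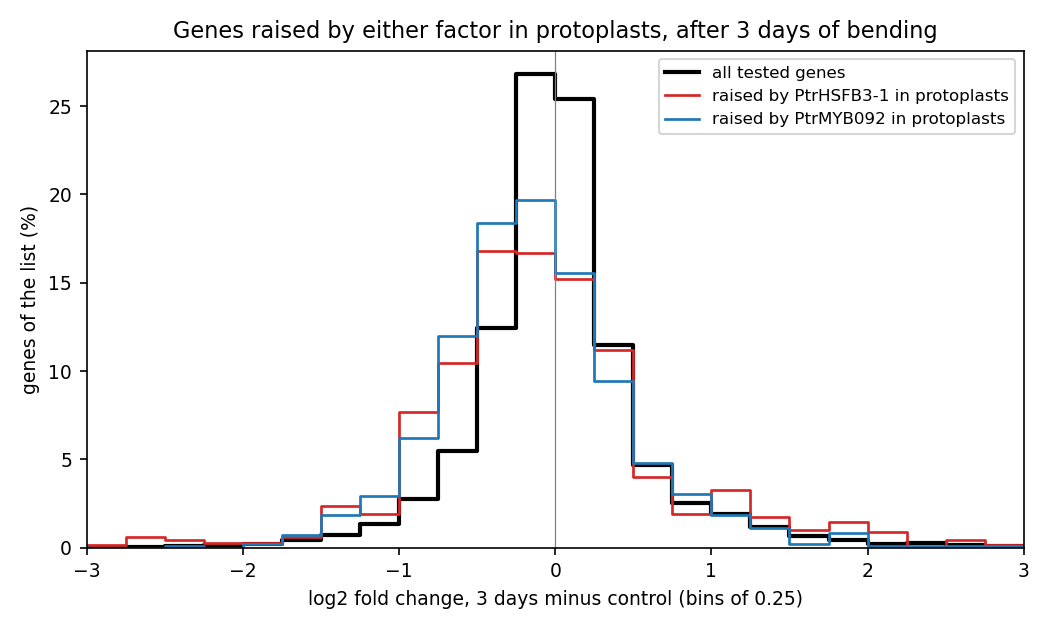
Percent of the genes of each list by log2 fold change, 3 days minus control, in bins of 0.25, for all 27795 tested genes (black), the 678 tested genes raised by PtrHSFB3-1 (red) and the 817 raised by PtrMYB092 (blue) in protoplasts. Both coloured lines lie above the black line between -1 and -0.5, and their medians are -0.12 and -0.15. The red line is also above the black line in the bins centred at 1.125 to 2.125. At 1.125 it is at 3.25% beside 1.91% for all tested genes, so this list is wider on both sides.

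Whether the named genes stayed at their 3-day level was read from the contrast of 7 against 3 days of bending, which leaves the control level out. The quasi-likelihood test called 0 of 31 (0% of all tested genes), and 17 were higher and 0 lower at an unadjusted p under 0.05, where 11.2% and 9.01% of all tested genes were. DESeq2 called 10 higher and 0 lower (4.12% and 2.35% of all tested genes), and the exact test called 3 higher and 0 lower (1.7% and 1.36%). Higher at 7 days without overlap were PtrPAL4, PtrCSE2, PtrCCoAOMT1, PtrCAD1, PtrCesA18 and PtrIRX10-1, 6 of 31 where 14.4% of all tested genes were, and PtrPAL1 was lower, where 11.3% of all tested genes were. PtrCesA18 went from 2591, 3804 and 1721 CPM at 3 days to 6047, 4245 and 5862 CPM at 7 days, a log2 fold change of 0.99 (SE 0.36). PtrCAD1 went from 1215, 1727 and 1040 CPM to 2779, 2252 and 2878 CPM, also 0.99 (SE 0.27), with an adjusted p of 0.151 by the quasi-likelihood test and 0.000868 by DESeq2. PtrPAL1 went from 324.6, 354.6 and 483.4 CPM to 316.6, 253.2 and 195.2 CPM, a log2 fold change of -0.60 (SE 0.39). Differences between genes in this later contrast were not tested. PtrHSFB3-1, PtrMYB092, PtrPAL1, PtrPAL3, Ptr4CL5, PtrHCT1 and PtrCslA2 had 7-day means within 1 SE of, or below, their 3-day means.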

How the data were processed

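The authors deposited raw read counts for 41335 Populus gene models, whole numbers with no normalization. TopHat is named in the submitters' processing notes without a version. The name of the deposited table and the gene IDs of the study mark the gene models as version 3. The study's methods name a mapping to genome v3.0 for its protoplast libraries. For the stem libraries, the build of the alignment, the way reads were counted, strand and reads with several matches were not given in the sources used here, so counts of close copies and of overlapping or antisense genes are uncertain. Columns were matched to samples by name, and 0 columns were left unmatched.

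The analysis used edgeR 4.0.16 (R 4.3.3). After the filter filterByExpr, which left 99.87% or more of every library's counts, TMM factors were computed. A quasi-likelihood model with the 3 groups and no covariate was fitted to all 9 libraries, and 3 days minus control and 7 minus 3 days were tested two-sided, with Benjamini-Hochberg adjustment over all tested genes. The biological coefficient of variation was 30.9%. SEs are the absolute log2 fold change divided by the square root of F. Every pair of libraries within a group differed by far more than counting noise, a chi-square of 38.5 to 92.4 for each gene on average, where the pair held 20 counts or more. Code was tested on simulated counts.

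Names of wood genes and the protoplast lists come from the study's tables. The named genes are all of these wood genes, PtrActin, and at most 2 IDs in each direction, those with the smallest p among genes with non-overlapping libraries and at least 5 CPM in the higher group. Members and lists were chosen with earlier results of these data known. Of the gene IDs, 0 matched the reference table, so no descriptions, lengths, sequences or coordinates were used, and no markers of other cell types were examined. The depth of 20888144 counts or more in each library sets the precision of low genes. Alternatives were RLE factors, library totals, no filter, a stricter filter (1 CPM in all libraries of some group), and DESeq2 1.42.0 on all 9 libraries. Further alternatives were edgeR's exact test and a quasi-likelihood fit, each on the compared groups alone, the replicate number as a block, and each library left out.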

Additional observations from a re-analysis of the deposited data

How the results depend on the processing

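The number of genes called at 3 days was 0 under RLE factors, library totals, no filter, the stricter filter, the compared groups alone and the replicate block, and 0 to 37 with each library left out. DESeq2 called 913 genes and edgeR's exact test 469. For 7 against 3 days, DESeq2 called 10 of the 31 named wood genes (1145 higher of all tested genes, 4.12%) and the exact test 3 (473 higher, 1.7%), and the other alternatives called 0, the replicate block included. The cause of these gaps between tools was not tested. Whether replicate numbers pair the samples was not settled. Deviations from group means correlated at 0.392, -0.184 and -0.035 between control and 3-day libraries numbered 1, 2 and 3. Between libraries of unlike number the correlations lay between -0.282 and 0.330. With so few libraries in each group these values cannot exclude pairing. PtrHSFB3-1, PtrMYB092, PtrPAL1, PtrPAL3 and PtrCslA2 passed under DESeq2 and the exact test, and PtrC4H2 and PtrHCT1 under DESeq2 alone. Over all alternatives the adjusted p of PtrHSFB3-1 ranged from 6.88e-05 to 0.355 and that of PtrCslA2 from 0.000929 to 0.465. PtrCCR2, PtrCSE2, PtrCCoAOMT3, PtrCesA7, PtrCesA8 and PtrIRX10-1 took both signs as single libraries were left out.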
